A study of Mus musculus with 6 samples.

Results

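Transferrin iron uptake and iron sensing was followed through 10 genes of the 35178 symbols in a table of RNA-seq read counts from erythroid cells. The genes were chosen by their roles, with earlier results of these data known. They are the transferrin receptors Tfrc and Tfr2, the endosomal reductase Steap3 and iron transporter Slc11a2, the receptor-trafficking genes Exoc6 and Snx3, the iron regulatory proteins Aco1 and Ireb2, and the iron chaperones Pcbp1 and Pcbp2. All 10 were in the table and all 10 passed the filter on low counts that left 13721 genes for testing. The cells were sorted from spleen by Ter119, a surface marker of the red cell lineage, and came from sickle cell disease mice of 2 to 3 months of age on a mixed B6;129P2 background. One group was wild type for Nrf2 (WT, 3 libraries) and the other carried a knockout of Nrf2 (KO, 3 libraries), so both groups share the sickle cell disease. The sources used here do not give the sickle allele, the deleted part of Nrf2, or whether a library is a single animal. All p-values therefore refer to library-to-library spread, part of which may be technical. Nrf2 is a transcription factor of the antioxidant response, and the comparison asks how transcripts of erythroid cells differ without it.

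Red cell precursors take up nearly all the iron for hemoglobin through transferrin. The loaded protein binds transferrin receptor 1, the product of Tfrc, enters the cell in clathrin-coated vesicles and gives up its iron in the acid endosome, where STEAP3 reduces the metal and DMT1, the product of Slc11a2, moves it into the cytosol. The receptor then returns to the surface. Iron is sensed by the iron regulatory proteins IRP1 (Aco1) and IRP2 (Ireb2), which in iron-poor cells bind hairpins in messenger RNA called iron-responsive elements (IREs). Binding in a 3′ UTR slows the decay of Tfrc mRNA, and binding in a 5′ UTR blocks translation of ferritin. IRP1 with an iron-sulfur cluster is instead a cytosolic aconitase.

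The hairpins are shown because they are the sites through which the sensors of this set act on its transport genes. In the GENCODE M21 transcripts (GRCm38, the assembly also called mm10) the longest 3′ UTR of each protein-coding gene was searched on the transcript strand for an unpaired C, a stem of 5 base pairs (G-U pairs allowed) and the 6-base loop CAGTGN. The 2458-base 3′ UTR of Tfrc, on the plus strand of chromosome 16, held 4 such hairpins. Capitals mark the loop, and each line runs 5′ to 3′ with T for U.
Tfrc hairpin 1, chr16:32631219-32631247: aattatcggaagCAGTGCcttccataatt
Tfrc hairpin 2, chr16:32631598-32631626: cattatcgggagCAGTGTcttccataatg
Tfrc hairpin 3, chr16:32631663-32631691: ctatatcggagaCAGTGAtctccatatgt
Tfrc hairpin 4, chr16:32631710-32631738: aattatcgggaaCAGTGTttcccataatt
Tfrc hairpin with another loop, chr16:32631160-32631188: atttatcagtgaCAGAGTtcactataaat
Slc11a2 hairpin, minus strand, chr15:100395152-100395181: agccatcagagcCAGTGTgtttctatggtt
Fth1 hairpin in the 5′ UTR, plus strand, chr19:9982732-9982760: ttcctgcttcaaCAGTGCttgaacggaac
The Slc11a2 hairpin, in a transcript with a 3′ UTR of 2650 bases, keeps the 5 pairs only with 1 extra unpaired base on the 3′ side of the stem. That of ferritin heavy chain, Fth1, is given for comparison from a transcript that IRPs act on at the other end. The strict form stood in the 3′ UTR of 121 of 21045 genes (0.575%), and Tfrc was the only gene with 2 or more. Among the 3988 genes with a 3′ UTR of at least 2458 bases, 41 (1.03%) had a strict hairpin in the first 2458 bases. The form with the extra base occurred in 1.02% of genes, and the other loops, CAGNGN with any base but T at the N after CAG, in 1.07%. These further forms were searched after the strict one had given a hairpin in none of the 10 genes but Tfrc. None of the other 8 genes had a hairpin of these 3 forms. A form with 1 of the 5 pairs missing was also searched, and it occurred in 2.89% of genes and in none of the 10. A match is a description of letters and not a measured site, and reads counted per gene cannot tell Slc11a2 transcripts with the hairpin from those without.

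**Figure D1:**
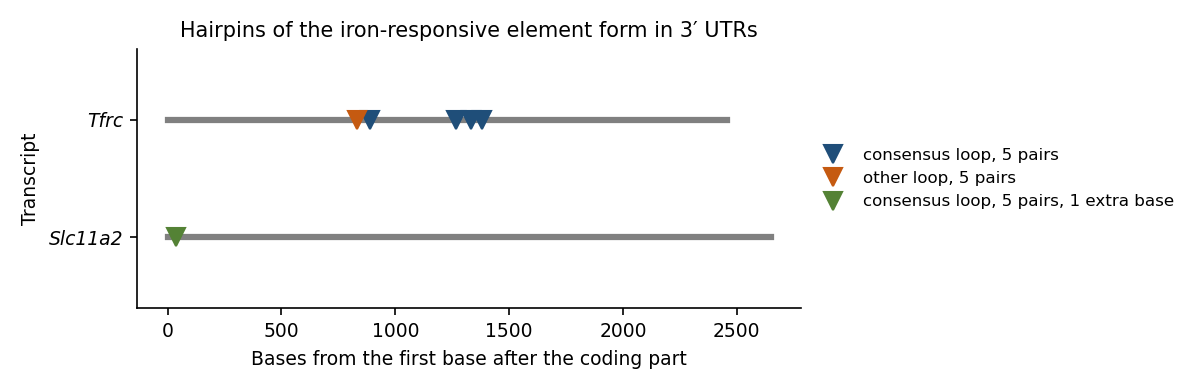
Positions of the hairpins along the annotated 3′ UTRs (grey lines) of Tfrc and Slc11a2, in bases from the first base after the coding part. The 5 hairpins of Tfrc lie within the middle of its 2458-base UTR, and the single one of Slc11a2 lies near the start of its 2650-base UTR.

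Library totals ran from 16420054 to 21790983 reads. Nfe2l2, which encodes Nrf2, was read in every library, at 98.7, 71.0 and 75.2 CPM (counts per 1000000 reads, scaled between libraries by TMM) in WT replicates 1 to 3 and 63.4, 76.8 and 68.6 CPM in KO replicates 1 to 3; reads outside the deleted part check nothing about the genotype. Sex-linked reads divided the libraries: Xist was at 784 to 1169 CPM in WT and 917 in KO replicate 3, but KO replicates 1 and 2 had 15.8 and 0.702 CPM of it, with 212 and 271 CPM of chromosome Y reads. KO replicates 1 and 2 thus differed from every WT library in sex-linked reads as well as in genotype. In these libraries the effects of sex and genotype cannot be told apart, nor can they in the fit without KO replicate 3. All 10 genes are autosomal, but that position does not remove this limit. Changes of the 10 genes were also fitted for KO replicate 3 alone against WT. All 12 erythroid markers were present, with a summed level of 34670 to 36203 CPM in WT and 25478 to 26610 CPM in KO, so the groups did not overlap. Macrophage markers (10 of 10 read) summed to 1329 to 1490 CPM in WT and 1460 to 1785 in KO, B cell markers (8 of 8) to 633 to 1208 and 425 to 1015, platelet markers (8 of 8) to 171 to 389 and 185 to 226, neutrophil markers (8 of 8) to 330 to 1031 and 493 to 672, T and NK cell markers (8 of 8) to 23.8 to 33.1 and 24.2 to 39.6, and early progenitor markers (6 of 6) to 97.6 to 127 and 109 to 127. No marker of any list was at 0. Fewer cells of a type and less RNA per cell cannot be told apart in such libraries, and the part of other cells in the results was not tested.

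By edgeR's quasi-likelihood test of KO against WT with Benjamini-Hochberg adjustment over all genes, 0 of the 10 genes passed an adjusted p of 0.05, where 0.0219% of all genes tested did. At an unadjusted p under 0.05 there were 5, all lower in KO: Tfrc, Slc11a2, Aco1, Pcbp1 and Pcbp2. Over all genes 12.2% reached that level, 5.98% lower and 6.25% higher. DESeq2 called those same 5 genes lower after adjustment, where it called 2.14% of all genes lower and 2.81% in either direction. limma-voom called 0 after adjustment and had the 5 at an unadjusted p under 0.05. With no filter on low counts edgeR called Tfrc and Pcbp1, both lower, where it called 1.05% of 21680 genes. The median log2 change of the 10 was -0.39, beside 0.02 for all genes tested. The other 5 genes, Tfr2, Steap3, Exoc6, Snx3 and Ireb2, had log2 changes between -0.05 and 0.24.

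The count of 5 was 3 without KO replicate 3 (Tfrc, Aco1 and Pcbp1), where 8.18% of all genes reached the same level and 4.66% did so with KO lower. It was 2 (Tfrc and Pcbp1) for KO replicate 3 alone against WT, where the shares of all genes were 8.18% and 4.35%. In that fit KO replicates 1 and 2 formed a group of their own, the spread came from the other 5 libraries, and the lone library was assumed to vary like them. In both fits the share of all genes was also below the 12.2% from all 6 libraries. The 5 genes named above as lower kept a change below 0 in each of the 17 alternatives. They were named from the same 6 libraries that the alternatives use, so this is not a separate result.

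**Figure D2:**
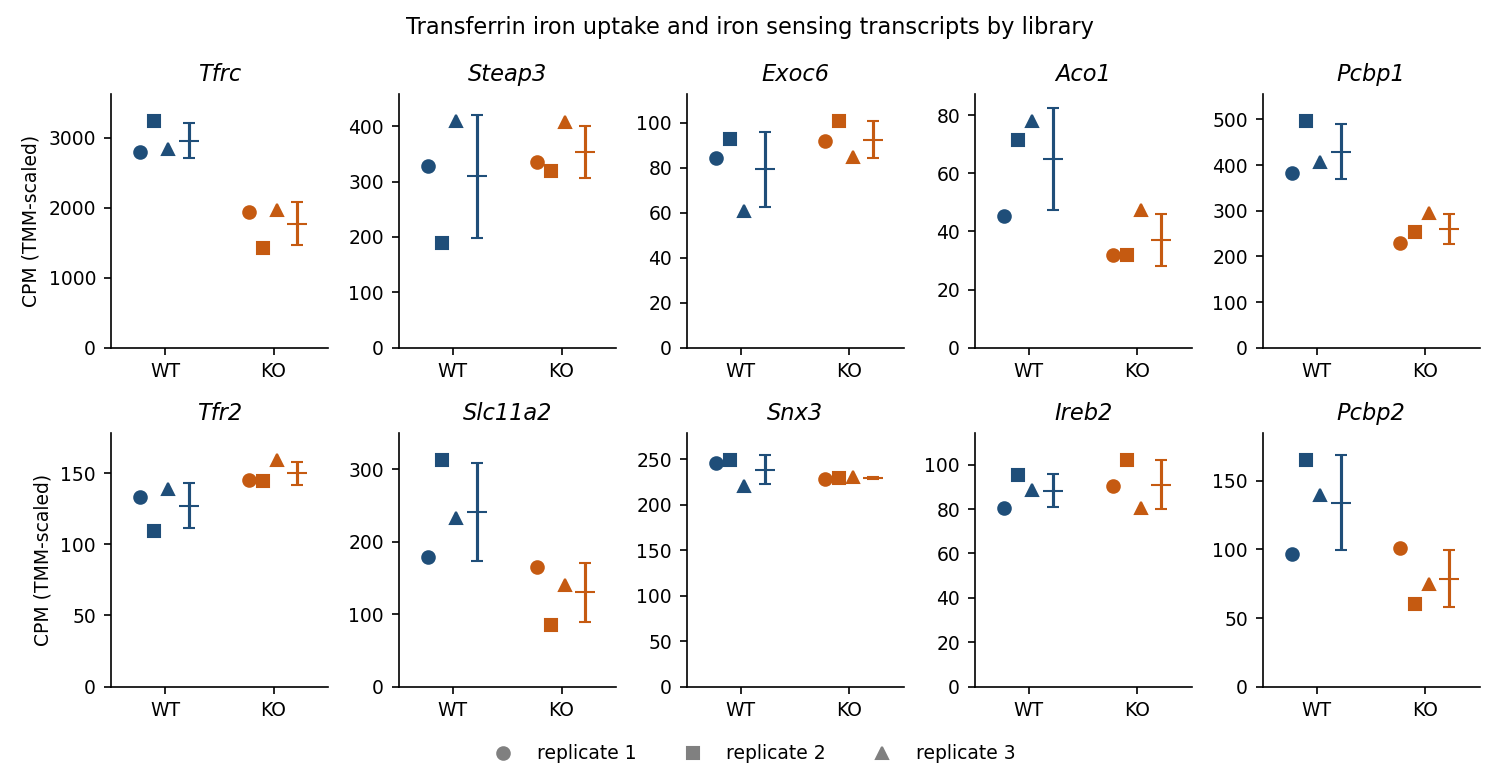
TMM-scaled CPM of each gene in the 3 WT (blue) and 3 KO (orange) libraries, with the symbol giving the replicate and the bar the mean ± SD. KO libraries lie below all WT libraries for Tfrc, Slc11a2 and Pcbp1 and above them for Tfr2, and the groups overlap for the other 6.

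Transferrin receptor 1 had by far the highest level of the set. Tfrc (chromosome 16, 32608920 to 32632794) stood at 2792, 3246 and 2837 CPM in WT and at 1942, 1422 and 1964 CPM in KO, in the order of replicates 1, 2 and 3, as for every gene that follows. The groups did not overlap, the lowest WT library lying above the highest KO library, as in 7.91% of all genes tested with KO lower. The mean level was 2958 CPM with an SD of 250.05 in WT, and 1776 CPM with an SD of 307 in KO (n = 3 libraries each), a log2 change of -0.74 (SE 0.141) and an adjusted p of 0.0982 by edgeR. DESeq2 gave an adjusted p of 5.04e-05, and over all 17 alternatives the adjusted p ran from 5.04e-05 to 0.576. KO replicate 3 alone differed from WT by a log2 of -0.59 (SE 0.206). KO replicate 2 was the lowest library, and without it the change was -0.61.

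Transferrin receptor 2 stood on the other side. Tfr2 encodes a second transferrin-binding receptor, which in erythroid cells associates with the erythropoietin receptor, and lies on chromosome 5 from 137569840 to 137587481. It stood at 133, 109 and 139 CPM in WT and at 145, 145 and 159 CPM in KO. All KO libraries were above all WT libraries, as in 10.3% of all genes tested with KO higher, but the gap between the groups was small, and WT replicate 2 lay below the rest. The log2 change was 0.24 (SE 0.115, adjusted p = 0.442 by edgeR), and 0.14 without WT replicate 2. Per kilobase of annotated exon, Tfrc reads were 14.3 to 20.9 times Tfr2 reads in WT libraries. In KO libraries they were 6.89 to 9.37 times Tfr2 reads. Each gene alone already separated the groups, in opposite directions, and the ratio was not tested.

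The exact two-sided permutation test on single genes gave its smallest possible p for 3 against 3, 0.1, for Tfrc, Tfr2, Slc11a2 and Pcbp1, so it cannot pass 0.05 for any gene here.

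The pair that carries iron out of the endosome stood on opposite sides of 0, and the difference between them was not tested. Slc11a2 (chromosome 15, 100387898 to 100425072) encodes DMT1, the proton-coupled transporter of ferrous iron. It had 179, 313 and 232 CPM in WT and 165, 85.2 and 140.2 CPM in KO. The groups did not overlap, but WT replicate 1 and KO replicate 1 were close, and the libraries of a group spread widely, WT replicate 2 being the highest and KO replicate 2 the lowest of the 6. Means were 242 ± 67.6 and 130.1 ± 40.8 CPM, with a log2 change of -0.89 (SE 0.300, adjusted p = 0.328 by edgeR). DESeq2 gave an adjusted p of 0.00448, the lowest over the alternatives, which reached 0.723. For KO replicate 3 alone the change was -0.79 (SE 0.490).

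Steap3 (chromosome 1, 120190757 to 120272705), the ferrireductase of the transferrin endosome, had 328, 190.0 and 410.1 CPM in WT and 335, 319 and 408 CPM in KO. WT replicate 2 alone was low, and the other 5 libraries lay within 319 to 410.1 CPM. The log2 change was 0.19 (SE 0.267, adjusted p = 0.837 by edgeR), and without WT replicate 2 it was -0.06. Per kilobase of exon, Steap3 reads were 0.674 to 2.04 times those of Slc11a2 in WT libraries and 2.26 to 4.16 times in KO libraries.

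Exoc6 encodes a subunit of the exocyst, the complex that tethers vesicles to the membrane, and its loss in the mouse mutant hemoglobin deficit impairs transferrin cycling. Exoc6 (chromosome 19, 37550418 to 37684059) had 84.2, 93.0 and 60.6 CPM in WT and 91.7, 101 and 84.7 CPM in KO, a log2 change of 0.22 (SE 0.152, adjusted p = 0.612 by edgeR). WT replicate 3 was low, and without it the change was 0.06. Snx3, a sorting nexin that returns the receptor to the recycling route (chromosome 10, 42502030 to 42535381), had 245, 249.4 and 220.3 CPM in WT and 229, 229.5 and 231 CPM in KO. These KO values were nearly identical and lay inside the WT range, with a log2 change of -0.05 (SE 0.0981, adjusted p = 0.876 by edgeR), or 0.08 when scaled by library totals.

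Of the iron regulatory proteins, Aco1 had a lower mean in KO and Ireb2 had nearly the same mean in both groups. Aco1 (chromosome 4, 40143081 to 40198338) had 45.1, 71.4 and 78.1 CPM in WT and 31.9, 32.03 and 47.2 CPM in KO. The groups overlapped, because KO replicate 3 was just above WT replicate 1. Means were 64.9 ± 17.4 and 37.0 ± 8.80 CPM, with a log2 change of -0.81 (SE 0.229, adjusted p = 0.225 by edgeR). DESeq2 gave an adjusted p of 0.00708, the lowest of the alternatives, which reached 0.699. For KO replicate 3 alone the change was -0.46, and without KO replicate 3 it was -1.03. Ireb2 (chromosome 9, 54863789 to 54912530) had 80.6, 95.5 and 88.5 CPM in WT and 90.4, 102 and 80.5 CPM in KO, a log2 change of 0.05 (SE 0.120, adjusted p = 0.917 by edgeR).

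The balance between both sensors was read inside each library, where scaling between libraries has no part. The ratio of Aco1 reads to Ireb2 reads was 0.560, 0.748 and 0.882 in WT and 0.353, 0.313 and 0.587 in KO. KO replicates 1 and 2 were below all WT libraries, while KO replicate 3 was above WT replicate 1. The mean log2 ratio was -0.48 ± 0.332 in WT and -1.32 ± 0.480 in KO (SD, n = 3 each), a difference of -0.84 with an exact two-sided permutation p of 0.2. Per kilobase of exon, Aco1 was 1.18 to 1.86 times Ireb2 in WT and 0.661 to 1.24 times in KO.

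Both iron chaperones were lower on average in KO. PCBP1 and PCBP2 bind RNA as well as iron, and they deliver cytosolic iron to ferritin. Pcbp1 (chromosome 6, 86524492 to 86526321) is a gene without introns. It had 383, 497 and 406 CPM in WT and 229.9, 254 and 295 CPM in KO. The groups did not overlap. Means were 429 ± 60.1 and 259.6 ± 33.0 CPM, with a log2 change of -0.72 (SE 0.133) and an adjusted p of 0.0906 by edgeR. By DESeq2 the adjusted p was 5.04e-05, and over the alternatives it ran from 5.04e-05 to 0.576. KO replicate 3 alone gave -0.54 (SE 0.186).

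Pcbp2 (chromosome 15, 102470539 to 102500061) had 96.8, 165 and 139 CPM in WT and 101, 60.2 and 74.8 CPM in KO. WT replicate 1 lay below KO replicate 1, so the groups overlapped, and WT replicate 2 was the highest library. The log2 change was -0.77 (SE 0.241, adjusted p = 0.279 by edgeR). DESeq2 gave an adjusted p of 0.0104, the lowest of the alternatives, which reached 0.630. For KO replicate 3 alone the change was -0.84 (SE 0.388). The ratio of Pcbp1 to Pcbp2 reads was 3.96, 3.00 and 2.91 in WT and 2.28, 4.21 and 3.95 in KO. The mean log2 ratio differed by 0.04 between the groups, against an SD of 0.243 in WT and 0.487 in KO, with an exact two-sided permutation p of 0.9.

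Reads of some of these genes could be shared with others, since the strand setting of the counting is not given in the sources used here. The antisense gene 1600020E01Rik overlaps 75 exon bases of Pcbp1 and had 383 to 646 reads a library, beside 4088 to 8080 for Pcbp1. Gm5475 overlaps Slc11a2 exons with 3 to 7 reads, and Map3k12 and Gm26518 overlap Pcbp2 exons with 36 to 64 and 4 to 16 reads. Pcbp1 and Pcbp2 are related in sequence, so reads shared by both are uncertain.

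Set on one scale per length, the WT levels ran from Tfrc at 478 ± 40.4 CPM per kilobase of exon through Pcbp1 at 234 ± 32.8 and Snx3 at 169 ± 11.2 to Steap3 at 54.1 ± 19.5. Below these came Slc11a2 at 38.0 ± 10.6, Tfr2 at 29.3 ± 3.68, Pcbp2 at 25.7 ± 6.65 and Exoc6 at 22.4 ± 4.72 CPM per kilobase. Aco1 at 14.4 ± 3.88 and Ireb2 at 9.30 ± 0.789 CPM per kilobase were the lowest. Neighbours from Steap3 to Exoc6 differed by less than the larger of their SDs in this order, while Tfrc, Pcbp1 and Snx3 were apart. The length is that of all annotated exons, which lowers the value of genes with many unused exons.

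**Figure D3:**
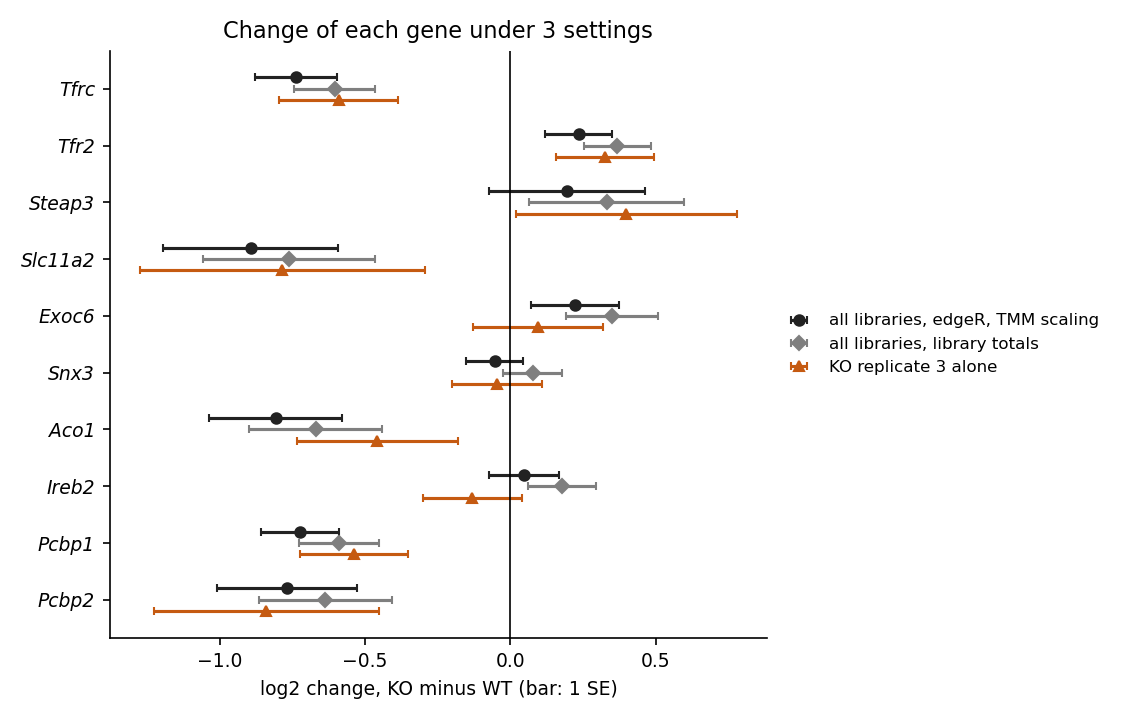
log2 change (KO minus WT) of each gene with 1 SE, from all libraries with TMM scaling, from all libraries scaled by library totals, and from KO replicate 3 alone against WT. Tfrc, Slc11a2, Aco1, Pcbp1 and Pcbp2 lie below 0 in all 3 settings, and Snx3 and Ireb2 change sides.

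Scaling bears on the genes near 0. With library totals in place of TMM the median of all genes moved from 0.02 to 0.15. With library totals 7 of the 10 genes had an unadjusted p under 0.05, 5 lower and 2 higher, where 18.2% of all genes reached that level (15.7% higher and 2.56% lower). The 2 higher were Tfr2 (log2 0.37, SE 0.116) and Exoc6 (log2 0.35, SE 0.157), with adjusted p by edgeR of 0.147 and 0.269.

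The libraries did not differ by genotype alone. WT replicate 2 was the highest library for Tfrc, Slc11a2, Pcbp1 and Pcbp2 and the lowest for Steap3 and Tfr2. KO replicate 2 was the lowest for Tfrc, Slc11a2 and Pcbp2. WT replicate 1 was the lowest WT library for Tfrc, Slc11a2, Aco1, Pcbp1 and Pcbp2. B cell markers were highest in it, at 1208 CPM summed, with KO replicate 1 next at 1015. Neutrophil markers were lowest in it, at 330 CPM. The part of these cells in the values was not tested.

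**Figure D4:**
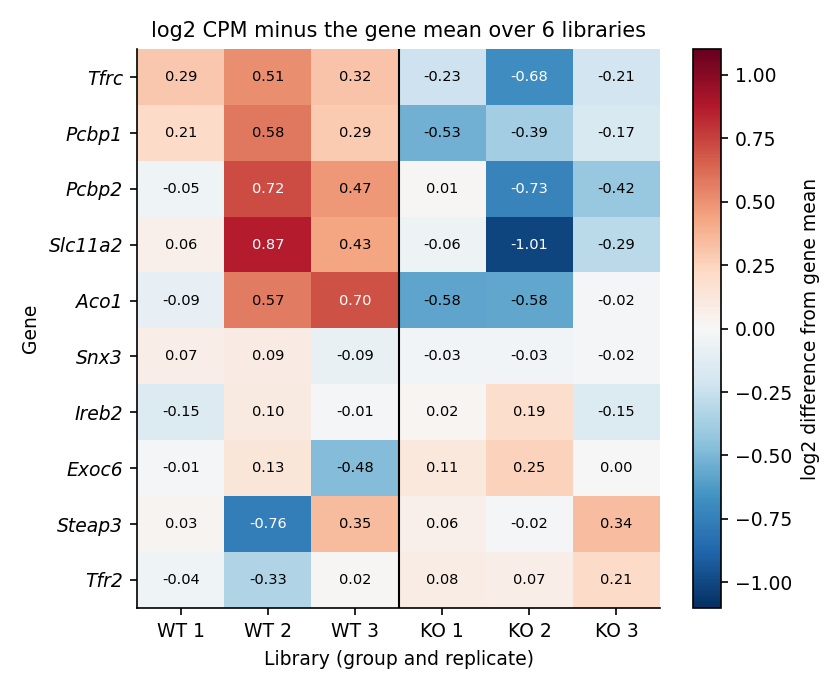
log2 CPM of each gene minus its mean over the 6 libraries, with red above and blue below the mean and the value in each cell. The upper 5 genes are above their mean in WT replicates 2 and 3 and below it in KO replicate 2, while Steap3 and Tfr2 are low in WT replicate 2.

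Of the 12 erythroid markers, 10 were also lower in KO at an unadjusted p under 0.05 by edgeR, beside 5.98% of all genes. None was called after adjustment, and their median log2 change was -0.39. The median was -0.93 for B cell, -0.57 for platelet and -0.28 for neutrophil markers. It was 0.22 for macrophage, 0.16 for early progenitor and 0.04 for T and NK cell markers. Summed levels of these 6 other lists overlapped between the groups. Each gene was set against the summed reads of the 12 erythroid genes in the same library. The list included Slc4a1, Alas2, Klf1, Gata1, Epor, Hemgn, Ermap, Rhag, Kel, Ank1 and Epb4.2. Tfrc reads per read of the list were 0.0780, 0.0897 and 0.0818 in WT and 0.0730, 0.0554 and 0.0771 in KO. KO was below WT in every library, though KO replicate 3 was close to WT replicate 1. The mean log2 ratio was -3.59 ± 0.102 in WT and -3.88 ± 0.255 in KO, a difference of -0.29 with an exact two-sided permutation p of 0.1, the smallest possible. On the log2 scale this is less than the -0.74 from TMM scaling.

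For the other genes the ratio to the erythroid list was added after the data were seen and was not tested. Slc11a2 (-0.45), Aco1 (-0.34), Pcbp2 (-0.31) and Pcbp1 (-0.27) were lower in KO on the log2 scale with groups that overlapped. Steap3 (0.71), Tfr2 (0.70), Exoc6 (0.70), Ireb2 (0.50) and Snx3 (0.40) were higher in KO. For each of these 5 all KO libraries lay above all WT libraries. The summed list itself was lower in KO, at 25478 to 26610 CPM beside 34670 to 36203 in WT. A gene with an even CPM therefore rises on this ratio. With TMM scaling Ireb2 and Snx3 had log2 changes of 0.05 and -0.05. The share of all genes that separate on this ratio was not computed. The list is dominated by Slc4a1, at 13948 CPM on average, so the ratio depends much on that gene.

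**Figure D5:**
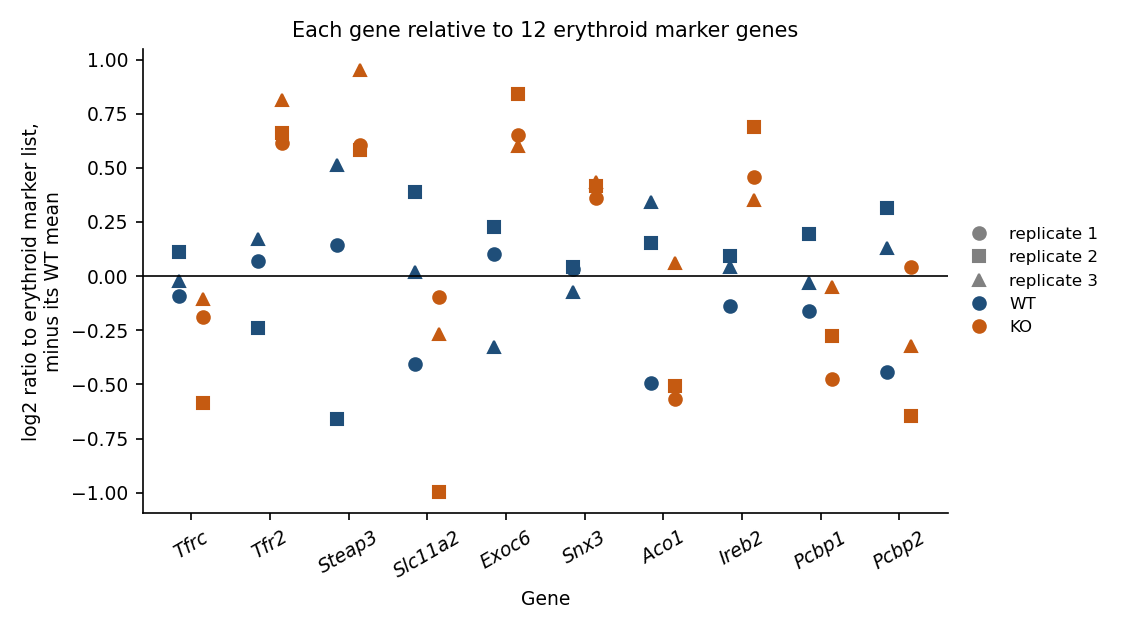
log2 ratio of each gene's reads to the summed reads of 12 erythroid marker genes in the same library, minus the WT mean of that ratio, with WT in blue and KO in orange. Tfr2, Steap3, Exoc6, Snx3 and Ireb2 lie above all WT libraries in all KO libraries, Tfrc lies below, and the other 4 overlap. The summed marker level was itself lower in KO, which raises every ratio there.

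The genes nearest to it, by the distance between log2 CPM centred on each gene's mean (Euclidean, over 6 libraries, among 13720 genes), were the peroxiredoxin Prdx2 (distance 0.127), the docking protein Dok4 (0.133), the F-box gene Fbxo34 (0.149), the erythroid transcription factor Tal1 (0.149) and the erythropoietin receptor Epor (0.173). These genes had 3005 ± 223 and 1922 ± 334 CPM (Prdx2), 19.2 ± 1.13 and 11.97 ± 1.89 (Dok4), 201 ± 18.4 and 118 ± 26.7 (Fbxo34), 1066 ± 93.2 and 672 ± 153 (Tal1) and 415 ± 54.9 and 253 ± 41.5 (Epor) in WT and KO. Among the other 9 genes of the set, Pcbp1 was nearest to Tfrc at rank 104, followed by Pcbp2 at 190, Slc11a2 at 250 and Aco1 at 515. Snx3 was at rank 2675, Ireb2 at 6247, Tfr2 at 9506, Exoc6 at 10203 and Steap3 at 12098. The genes nearest to Tfrc were picked by likeness in these libraries, so their direction is not a separate result.

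Partners of the transferrin cycle and of iron sensing were read from 11 lists of 102 genes in all, of which 96 were tested. By edgeR 0 were called after adjustment. At an unadjusted p under 0.05 there were 18, 8 higher and 10 lower (18.8% of those tested, beside 12.2% of all genes), and the median log2 change was -0.0014. The listed genes with the lowest levels were not tested, among them the reductases Steap1 and Steap4, the liver hormone gene Hamp and transferrin itself (Trf in the table, 0.739 ± 0.794 CPM in WT and 0.352 ± 0.229 in KO).

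The machinery that takes the receptor in and recycles it was covered by 3 lists. Of 11 genes of clathrin uptake, 1 was lower and 1 higher at an unadjusted p under 0.05. The lower one was Picalm, a clathrin assembly protein needed for receptor uptake in red cell precursors, at 1285, 1290 and 1186 CPM in WT and 941, 1168 and 981 CPM in KO (log2 -0.28, SE 0.116, adjusted p = 0.363 by edgeR). The higher one was the clathrin adaptor Hip1 (27.3 ± 1.52 to 34.4 ± 5.93 CPM, adjusted p = 0.403 by edgeR). None of the 7 other exocyst subunits reached this level, and their median log2 change was 0.06. Of 16 retromer and recycling genes 1 did, the sorting nexin Snx5, at 132, 122 and 123.1 CPM in WT and 155, 173 and 175 CPM in KO. Its KO libraries were all above WT (log2 0.42, SE 0.0992, adjusted p = 0.145 by edgeR).

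The proton pump that acidifies the endosome had mixed directions. Of 16 genes 3 were lower and 2 higher at an unadjusted p under 0.05, with a median log2 change of 0.02. The lower ones were the subunits Atp6v1e1 (224 ± 10.2 to 179 ± 2.77 CPM) and Atp6v0c (118 ± 3.95 to 98.3 ± 10.8 CPM) and the X-linked accessory gene Atp6ap1 (242 ± 15.5 to 193 ± 6.85 CPM). The higher ones were Atp6v1a (48.2 ± 3.72 to 60.9 ± 5.89 CPM) and Atp6v1h (23.4 ± 1.22 to 30.04 ± 2.84 CPM). For all 5 the groups did not overlap, as in 7.91% of all genes tested with KO lower and 10.3% with KO higher. The 5 were named for their low p, so this is not a separate result. Atp6v0d1 and Atp6v1d (KO lower) and Atp6v1b2 (KO higher) did not overlap either, without reaching that p.

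Among other reductases and transporters 9 of 12 were tested. The mitochondrial iron importer Slc25a37 was at 5003, 5185 and 4947 CPM in WT and 3599.7, 2072 and 3408 CPM in KO, where KO replicate 2 was again the lowest (log2 -0.74, SE 0.184, adjusted p = 0.165 by edgeR). Slc11a1, the phagosomal relative of Slc11a2 that macrophages express, was at 36.7 ± 2.99 and 48.7 ± 9.56 CPM, and the zinc and iron transporter Slc39a8 at 46.5 ± 2.81 and 57.3 ± 5.57 CPM. Both were higher in KO at an unadjusted p under 0.05. The macrophage list summed to 1490, 1416 and 1329 CPM in WT and 1603, 1460 and 1785 CPM in KO. Its groups overlapped, and its median log2 change was 0.22. The part of macrophages in the values of Slc11a1 and Slc39a8 was not tested.

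Transcripts with known IREs were lower as a group of values, 8 of 9 with a log2 change below 0 beside 47.1% of all genes, and a median of -0.53. At an unadjusted p under 0.05 there were 3, all lower. Alas2, the X-linked first enzyme of erythroid heme synthesis, was among them at 5980, 6575 and 6212 CPM in WT and 3507, 2899.6 and 4368 CPM in KO (log2 -0.80, SE 0.147, adjusted p = 0.0906 by edgeR). Ferritin heavy chain Fth1 was at 3118, 3988 and 2710 CPM in WT and 1640.0, 1456 and 2599 CPM in KO (log2 -0.79, adjusted p = 0.246 by edgeR), and the iron exporter Slc40a1 at 515 ± 144 and 318 ± 72.4 CPM (log2 -0.69, adjusted p = 0.327 by edgeR). Ferritin light chain Ftl1 had a log2 change of -0.98 with an SE of 0.506, so the spread between libraries was wide. Alas2, Fth1, Slc40a1 and Ftl1, which carry the hairpin at the 5′ end, and Tfrc and Slc11a2, which carry it at the 3′ end, thus all had log2 changes below 0. Alas2 is also one of the erythroid markers.

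Genes that act on the sensors or on Tfrc mRNA had no member at an unadjusted p under 0.05 in 2 of the lists. The factors of Tfrc mRNA decay, Zc3h12a, Rc3h1 and Rc3h2, had log2 changes of 0.22, -0.03 and -0.03. In the list of IRP2 turnover the substrate receptor Fbxl5, which senses iron and marks IRP2 for degradation, was at 21.2 ± 1.63 and 25.8 ± 2.29 CPM (adjusted p = 0.459 by edgeR). Of 9 genes of cytosolic iron-sulfur assembly, which serves IRP1, the scaffold gene Nubp1 was higher, at 13.05, 11.9 and 11.2 CPM in WT and 16.9, 16.4 and 17.6 CPM in KO (log2 0.49, SE 0.158, adjusted p = 0.253 by edgeR).

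Relatives and partners of the chaperones divided. Glrx3, a glutaredoxin of cytosolic iron handling, was at 46.5, 39.6 and 47.2 CPM in WT and 75.3, 61.4 and 72.0 CPM in KO, the groups not overlapping (log2 0.65, SE 0.124, adjusted p = 0.0982 by edgeR). Ncoa4, the receptor that sends ferritin to autophagy, was at 695, 840 and 651 CPM in WT and 516, 369 and 457 CPM in KO (log2 -0.70, SE 0.144, adjusted p = 0.114 by edgeR). The relatives Pcbp3 and Pcbp4 were low, at 2.58 ± 0.535 and 2.14 ± 0.291 CPM in WT. In the TFR2 and hepcidin list of 9, 6 were tested and 1 was lower at an unadjusted p under 0.05. It was Epor, at 363, 472 and 410.4 CPM in WT and 260.3, 208 and 290.1 CPM in KO (log2 -0.72, SE 0.143, adjusted p = 0.110 by edgeR), while Tfr2, whose product associates with this receptor, was at the values given above, with all KO libraries above WT.

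The promoters were searched because Nrf2 binds antioxidant response elements. The letters TGACNNNGC were looked for on both strands of the 300-base RefSeq promoters (GRCm38.p6, 250 bases before to 50 after a start), of which 12.4% of 32851 held at least 1. For 9 of the 10 genes there were 16 promoters, and 1 of these had a match, that of Snx3, which had 2. In the lines below capitals mark the match.
Snx3 match from base -6, plus strand of the gene, chr10:42502038-42502066: cacagtcccgTGACGCCGCcgcgcctcag
Snx3 match from base -146, read on the opposite strand, chr10:42501898-42501926: ccgcagagaaGCTGGGTCAgaaaagccgg
Snx3 is the gene of the set with the smallest spread and a log2 change of -0.05. No match says only that these letters are not in this window.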

How the data were processed

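Raw gene counts, whole numbers by symbol with a column per library, were deposited by the authors. STAR 2.5, HTSeq, DESeq2 and mm10 are named in the submitters' processing notes without a role, and per the labels' protocols an Illumina TruSeq kit was used. Annotation and strand setting: not given in the sources used here. Of 35275 lines, 27 named by a date (0.340% to 0.383% of reads) were left out, and 122 that share a symbol were summed. The chi-square per gene of the closest pair of libraries, 23.9, was above sampling noise.

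Genes were filtered with filterByExpr and tested with edgeR 4.0.16 in R 4.3.3 (TMM, robust quasi-likelihood F test, no covariate, prior count 0.125, Benjamini-Hochberg over all genes). SE is the size of the log2 change over the root of F. DESeq2 1.42.0 and limma-voom 3.58.1 were run on the genes that passed the same filter. The script was tested on simulated data.

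The genes, lists and tests were chosen with earlier results of these data known. Named are all 10 genes, partners at an unadjusted p under 0.05 (up to 6 a list, with others as counts), and the 5 genes nearest to Tfrc after adding 0.5 CPM. Partner genes with a higher p, and genes that overlap a member, were named after their values were seen. Positions and exon lengths are from GENCODE M21.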

Additional observations from a re-analysis of the deposited data

How the results depend on the processing

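The number of all genes called, 3 with TMM scaling, was 10 with DESeq2 size factors in edgeR, 8 with upper-quartile scaling, 33 with library totals, 385 by DESeq2, 0 by limma-voom (with 1681 at an unadjusted p under 0.05), 228 with no filter on low counts, 9 with a minimum of 1 CPM in 3 libraries, 9 with the replicate block, 6 for KO replicate 3 alone and 9 with genes on X and Y left out, the last added after the data were seen. Leaving out single libraries gave 0 to 14. Of the 10 genes, 0 were called except by DESeq2 (5) and with no filter (2, Tfrc and Pcbp1), and 0 were called whichever single library was left out. The number at an unadjusted p under 0.05 was 5 in the main setting, beside 12.2% of all genes. It was 7 with library totals, beside 18.2%, and 4 with no filter, beside 2074 of 21680 genes. Without single libraries it was 3 to 5. The share of all genes then ran from 1153 of 14089 (KO replicate 3 out) to 1997 of 14099 (KO replicate 2 out). With WT replicate 3 out, the 5 included Tfr2, which was higher in KO, in place of Slc11a2. The cause of these differences was not tested.

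Signs turned only for values near 0. Leaving out single libraries, Steap3 ranged from -0.058 (WT replicate 2 out) to 0.45 and Ireb2 from -0.056 (KO replicate 2 out) to 0.12, with -0.013 when WT replicate 1 was out. Ireb2 was at -0.13 with KO replicate 3 as the only KO library, and Snx3 at 0.077 with library totals. The Pcbp1 to Pcbp2 log2 ratio, 0.04, was -0.12 to 0.32 without single libraries, below 0 without WT replicate 2 (-0.02), WT replicate 3 (-0.04), KO replicate 2 (-0.12) or KO replicate 3 (-0.07). The Aco1 to Ireb2 and Tfrc to erythroid list ratios kept their sign.

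Replicate numbers are shared between the groups, but same-numbered libraries correlated by only 0.031 to 0.0985 in their deviations, and 5 of 6 correlated best with their own number, a hint from the data and not the design. With the replicate block 4 of the 10 genes had an unadjusted p under 0.05, beside 13% of all genes, 3 lower (Tfrc, Aco1, Pcbp1) and 1 higher (Tfr2).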
